A study of Mus musculus with 2 samples.

Results

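The 7 subunits of respiratory complex I that are encoded in the mitochondrial genome, mt-Nd1, mt-Nd2, mt-Nd3, mt-Nd4, mt-Nd4l, mt-Nd5 and mt-Nd6, were followed in mouse bone marrow derived macrophage cultures. The members were the rows with these symbols, and all 7 were found among the 31053 genes listed in both libraries. The cultures came from wild-type 129Sv mice and were raised with 10% fetal bovine serum plus 50 ng/ml of M-CSF, the growth factor that turns marrow cells into macrophages. On day 7 the treated cells received 1 µg/ml of a truncated Tamm-Horsfall protein that does not polymerize (THP, a kidney protein also called uromodulin), and the control cells its vehicle, 5% dextrose, each for 18 h. Cells were detached, freed of dead cells and made into 1 Chromium droplet library per group, in which RNA is captured by its poly(A) tail and every captured molecule is tagged with the barcode of its droplet and with a random tag of its own (UMI). The number of mice, and any pooling of marrow, are not given in the sources. With 1 library per group no difference has a replicate check, treatment cannot be told apart from culture dish or library preparation, and all intervals are 95% intervals that cover counting error only.

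Complex I takes electrons from NADH, passes them to ubiquinone and pumps protons across the inner mitochondrial membrane. The mitochondrially encoded subunits form the core of its membrane arm, while the remaining core subunits and all accessory subunits are encoded in the nucleus. Mitochondrial DNA is transcribed from both strands as long precursors that are cut into single RNAs, and mt-Nd6 is the only protein gene on its strand. In human cells its mRNA has been described as lacking the poly(A) tail that the other mitochondrial mRNAs carry. In macrophages complex I is studied as a source of reactive oxygen species and as an enzyme whose use changes when the cells are activated by microbial products.

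The annotation places the members on the mitochondrial genome of GRCm38 as single-exon protein-coding genes. On the plus strand lie mt-Nd1 (ENSMUSG00000064341, 2751 to 3707), mt-Nd2 (ENSMUSG00000064345, 3914 to 4951), mt-Nd3 (ENSMUSG00000064360, 9459 to 9806), mt-Nd4l (ENSMUSG00000065947, 9877 to 10173), mt-Nd4 (ENSMUSG00000064363, 10167 to 11544) and mt-Nd5 (ENSMUSG00000064367, 11742 to 13565). On the minus strand lies mt-Nd6 (ENSMUSG00000064368, 13552 to 14070). Members touch in 2 places, and the sequences there are shown. How UMIs over these short overlaps were assigned was not tested. mt-Nd4l and mt-Nd4 are read from a single mRNA, and the end of the former overlaps the start of the latter by 7 bases (chrM:10167-10173), given in capitals from the annotated GENCODE transcripts, 5′ to 3′:
mt-Nd4l, last 30 bases: gtccaaaatctcaacctactacaATGCTAA
mt-Nd4, first 30 bases: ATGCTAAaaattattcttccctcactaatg
The 3′ ends of mt-Nd5 and mt-Nd6 overlap by 14 bases on opposite strands (chrM:13552-13565), again in capitals:
mt-Nd5, last 30 bases: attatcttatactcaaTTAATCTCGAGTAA
mt-Nd6, last 30 bases: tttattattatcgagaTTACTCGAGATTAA
The sources used here do not say whether counting was by strand, so reads over mt-Nd6 from the opposite strand, which is also transcribed, may be among its UMIs.

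mt-Nd6 differs from the other members in base composition, given here because these libraries start from poly(A). Its sense sequence holds 28.1% G, 6.0% C, 22.2% A and 43.7% T, while the 6 plus-strand members hold 8.0% to 11.6% G and 27.4% to 32.8% T. The longest run of A in mt-Nd6 is 3 bases, compared with 6 in mt-Nd1, 8 in mt-Nd2, 5 in mt-Nd3, 4 in mt-Nd4l and 7 in both mt-Nd4 and mt-Nd5. A stretch of 150 bases with the first of its longest A runs in capitals shows the contrast with mt-Nd1:
mt-Nd6, chrM:13921-14070, minus strand: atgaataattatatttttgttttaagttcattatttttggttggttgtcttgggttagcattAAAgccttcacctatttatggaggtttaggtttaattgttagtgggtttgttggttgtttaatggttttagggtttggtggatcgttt
mt-Nd1, chrM:3545-3694, plus strand: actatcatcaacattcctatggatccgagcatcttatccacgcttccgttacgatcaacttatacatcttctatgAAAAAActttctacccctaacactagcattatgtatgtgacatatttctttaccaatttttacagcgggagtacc
Copies of mitochondrial DNA in the nuclear genome can take reads from some members. Windows were matched to other annotated transcripts in either orientation, so the shares below can include matches to the opposite strand. Of all windows of 60 bases, 98.7% in mt-Nd4l, 97.9% in mt-Nd3 and 61.9% in mt-Nd4 were identical to an annotated nuclear pseudogene transcript (Gm10222, Gm28438 and Gm28439), as were 7.2% in mt-Nd2 and 4.4% in mt-Nd5. The share was 0.0% in mt-Nd1 and mt-Nd6. Among the other mitochondrial protein genes used for comparison it was 100.0% in mt-Co2, 99.9% in mt-Co3, 99.5% in mt-Atp6 and 46.5% in mt-Co1, and 0.0% in mt-Atp8 and mt-Cytb. The sources used here do not say how such reads were assigned, so the levels of mt-Nd3, mt-Nd4l and mt-Nd4, and those of mt-Co1, mt-Co2, mt-Co3 and mt-Atp6 as comparison genes, are uncertain, while those of mt-Nd1 and mt-Nd6 have no such copy among annotated transcripts.

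The THP library held 13193 barcodes and 227129670 UMIs and the vehicle library 11584 barcodes and 209092047 UMIs. After the filter on detected genes, UMIs and mitochondrial share, 12123 THP cells (median 16113 UMIs) and 10978 vehicle cells (median 17223 UMIs) were kept, and 38 barcodes occurred among the kept cells of both libraries. The median mitochondrial share of a kept cell was 2.92% after THP and 3.22% after vehicle. The 13 mitochondrial protein genes took 3.15% and 3.52% of all kept UMIs, of which the 7 complex I genes took 18.5% and 19.6%. Levels are given as CPM, UMIs per 1e6 UMIs of the kept cells, and log2 ratios are those of CPM + 1, THP over vehicle.

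mt-Nd6 was the member with the lowest level and the lowest ratio. It had 4206 UMIs after THP, 18.7 CPM (18.1 to 19.3), and 12742 UMIs after vehicle, 61.4 CPM (60.3 to 62.4), for a log2 ratio of -1.66. The intervals are far apart, and without the added 1 CPM the THP level was 0.305 (0.294 to 0.316) of the vehicle level. Among the 8012 genes that reached 10 CPM in either library, 2.97% were at least 2-fold lower after THP and 0.911% at least 2-fold higher; mt-Nd6 was 1 of the 238 lower genes and had the 16th lowest ratio. The balance of directions depends on scaling: 73 genes were higher and 238 lower by total UMIs, and 138 higher and 69 lower with TMM or RLE factors.

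mt-Nd6 was the only member past the 2-fold rule in all kept cells, and mt-Nd4l and mt-Nd5 lay just inside it. mt-Nd4l, a small subunit of the membrane arm, had 101 CPM (99.6 to 102) after THP and 198 CPM (196 to 200) after vehicle, for a log2 ratio of -0.97. For mt-Nd5, the largest of the antiporter-like pumping subunits, the levels were 230.0 CPM (228 to 232) and 428 CPM (425 to 431), for a log2 ratio of -0.89. These ratios lay at percentiles 3.43 and 4.87 of the genes compared, against 0.187 for mt-Nd6.

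The other 4 members differed little between the libraries. mt-Nd2 and mt-Nd4, also antiporter-like pumping subunits, had 1230.1 CPM (1226 to 1235) versus 1537 CPM (1531 to 1542) and 1737 CPM (1732 to 1743) versus 2048 CPM (2042 to 2054.5). Their log2 ratios were -0.32 and -0.24. mt-Nd3, a small subunit at the junction of the arms, was at 272 CPM (270.0 to 274) and 297 CPM (294 to 299), for a log2 ratio of -0.12. mt-Nd1, which helps form the ubiquinone site, was at 2226 CPM (2220 to 2232) and 2328 CPM (2321 to 2334), for a log2 ratio of -0.06. Beside a median of -0.18 over all 8012 genes, mt-Nd1 and mt-Nd3 sat above the middle of the distribution and mt-Nd2 and mt-Nd4 below it. With TMM or RLE scaling the median over all genes moved up by 0.29 or 0.28, and mt-Nd1, mt-Nd3 and mt-Nd4 then had ratios above 0 (0.22, 0.16 and 0.048 with TMM), while mt-Nd2, mt-Nd4l, mt-Nd5 and mt-Nd6 stayed below 0.

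**Figure D1:**
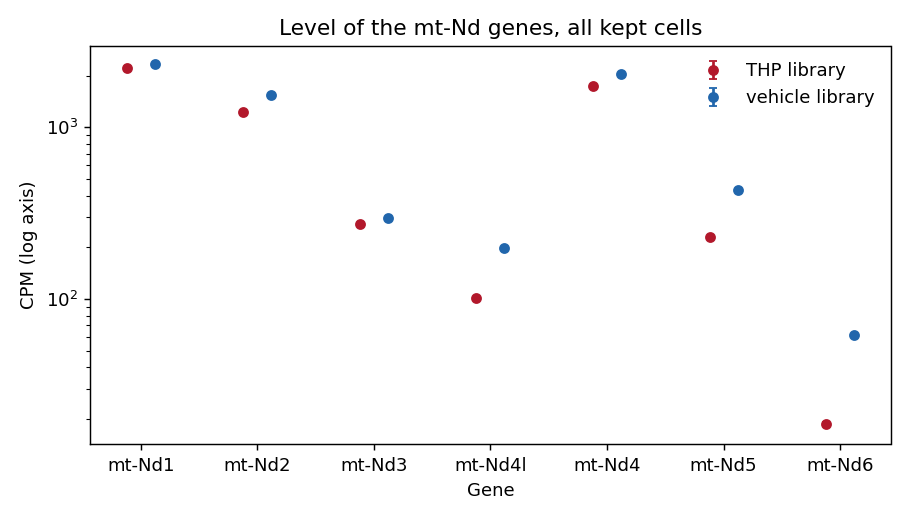
Level of each member in CPM (log axis) in the THP and vehicle libraries over all kept cells; points are levels and bars are exact Poisson 95% intervals, mostly smaller than the points. The gap between the libraries is widest for mt-Nd6 (18.7 against 61.4 CPM), followed by mt-Nd4l and mt-Nd5.

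Set against length, the members kept the same order in both libraries. Per kilobase of annotated RNA, mt-Nd1 had the highest level with 2326 CPM after THP and 2432 CPM after vehicle, followed by mt-Nd4 with 1261 and 1486 CPM. mt-Nd2 came next with 1185 and 1480 CPM, and after vehicle its interval (1475 to 1486) overlapped that of mt-Nd4 (1482 to 1491), so these neighbours were not told apart there. The lower end ran from mt-Nd3 (782 and 853 CPM per kilobase) over mt-Nd4l (340 and 668) and mt-Nd5 (126 and 235) to mt-Nd6 (36.0 and 118). These are poly(A)-primed counts, in which a longer RNA need not give more UMIs, so the order holds for this scale only.

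Counts within the mitochondrial RNA do not depend on how the libraries are scaled. For every 1000 UMIs of the 6 other members, mt-Nd6 gave 3.23 UMIs (3.13 to 3.33) after THP and 8.98 (8.82 to 9.13) after vehicle, a log2 difference of -1.48 (-1.53 to -1.43). Against mt-Nd5 alone, its neighbour on the opposite strand, mt-Nd6 gave 81.3 and 143 UMIs per 1000, a log2 difference of -0.82. Against the 6 mitochondrial protein genes of other complexes the difference was -1.57. mt-Nd6 was thus lower after THP in each of these comparisons, and least so in that with mt-Nd5. The other genes were taken as sums here and not set against mt-Nd6 singly. The THP level was 0.405 of the vehicle level for mt-Atp8, 0.509 for mt-Nd4l, 0.537 for mt-Nd5 and 0.305 for mt-Nd6. mt-Atp8 and mt-Nd4l were thus nearer to mt-Nd6 than mt-Nd5 was.

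Among all 13 mitochondrial protein genes, 4 had lower odds after THP by more than 0.5 on the log2 scale. They were mt-Nd6 at -1.55, mt-Atp8 at -1.14, mt-Nd4l at -0.82 and mt-Nd5 at -0.74, of which 3 are complex I genes, as are 7 of all 13, so the count is near that share. mt-Atp8, a small ATP synthase subunit, was also past the 2-fold rule with 31.9 CPM after THP and 78.9 CPM after vehicle. The other 9 genes lay between -0.16 (mt-Nd2) and 0.15 (mt-Co2). Complex I as a whole was close to the rest: the 7 members together gave 227 UMIs per 1000 UMIs of the 6 other genes after THP and 243 after vehicle.

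**Figure D2:**
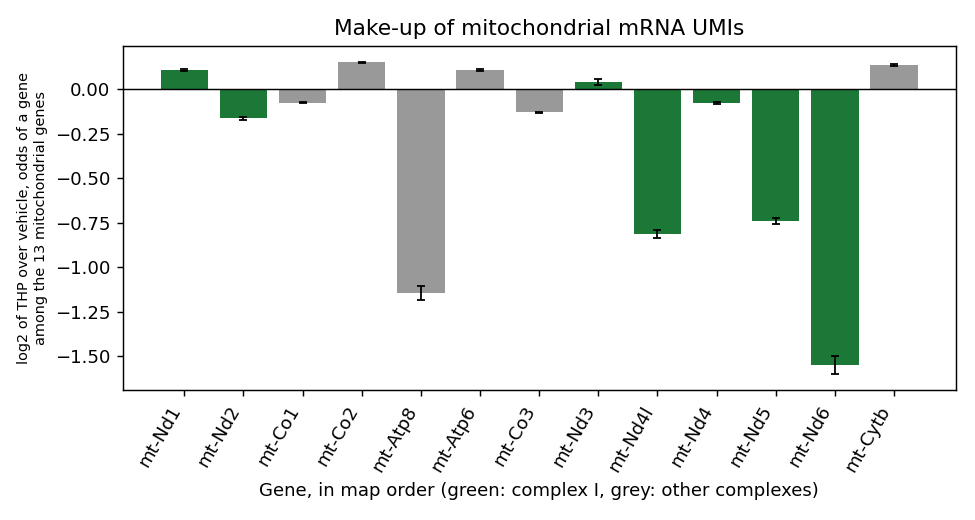
Log2 ratio, THP over vehicle, of the odds that a mitochondrial mRNA UMI belongs to each of the 13 protein genes, in map order, with complex I genes in green and the others in grey; bars are 95% counting intervals. mt-Nd6, mt-Atp8, mt-Nd4l and mt-Nd5 stand out below 0, at -1.55, -1.14, -0.82 and -0.74.

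mt-Nd4l and mt-Atp8 share a feature that the choice of members did not use, in that each is the first reading frame on an mRNA that carries a second gene. mt-Nd4l gave 58.1 UMIs (57.3 to 58.8) per 1000 UMIs of its partner mt-Nd4 after THP and 96.8 (95.8 to 97.8) after vehicle, a log2 difference of -0.74. mt-Atp8 gave 5.32 (5.19 to 5.44) and 12.5 (12.3 to 12.7) per 1000 UMIs of mt-Atp6, a difference of -1.23. In each pair the upstream frame was thus lower against its downstream partner on the same RNA after THP than after vehicle. mt-Nd5 per 1000 UMIs of mt-Nd1 was 103 and 184, whereas mt-Nd3 per 1000 UMIs of mt-Nd1 was 122 and 127.

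Cells were then gated on marker genes, and 8 gates had at least 50 cells in each library. A marker counted for a cell when its share of the cell's UMIs was above the mean over all kept cells, and a cell entered the gate where it had the largest share of markers, at 50% or more. The macrophage gate held 2326 THP cells (19.2% of those kept) and 1577 vehicle cells (14.4%), with Adgre1, Mrc1 and the C1q genes among its 7 markers. The remaining gates were monocyte (1020 and 1478 cells), mature neutrophil (867 and 1132), immature neutrophil (1215 and 1536), myeloid progenitor (1184 and 1461), MHC class II high antigen-presenting cell (920 and 1012), osteoclast-like (473 and 432) and stromal (74 and 62). In no gate were 3909 THP cells (32.2%) and 2198 vehicle cells (20.02%). Each gate is a range of marker scores rather than a cell type by itself, and between 3.01% (myeloid progenitor, vehicle) and 46.7% (osteoclast-like, THP) of its cells sat exactly at the least number of markers. All markers were higher in their gate than in the other kept cells of the same library, except Fn1 in the vehicle monocyte gate. Cells entered a gate by these same markers, so this was largely fixed in advance and is no check on the gate names.

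mt-Nd6 was lower after THP in each of the 8 gates and past the 2-fold rule in each. In macrophage-gated cells it had 17.7 CPM (16.7 to 18.8) after THP and 62.3 CPM (59.9 to 64.7) after vehicle, for a log2 ratio of -1.76. Myeloid progenitors gave 19.5 CPM (17.7 to 21.4) versus 71.1 CPM (68.2 to 74.1) and a log2 ratio of -1.81. Both are within a narrow band with the antigen-presenting (-1.67), osteoclast-like (-1.66), immature neutrophil (-1.61) and monocyte (-1.50) gates. The 2 gates at the ends rested on few UMIs. Stromal cells had 34 and 213 mt-Nd6 UMIs, or 17.7 CPM (12.2 to 24.7) and 86.0 CPM (74.8 to 98.4), with the lowest log2 ratio, -2.22. Mature neutrophils had 64 and 144 UMIs, or 15.6 CPM (12.1 to 19.98) and 35.3 CPM (29.8 to 41.6), with the highest, -1.12. Cells in no gate had 19.3 and 58.3 CPM. The intervals of the libraries did not overlap in any gate.

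As background, the share of compared genes that were 2-fold lower was 2.69% in the macrophage gate, 2.45% in monocytes, 9.17% in mature and 4.26% in immature neutrophils, 2.21% in myeloid progenitors, 3.9% in antigen-presenting, 2.33% in osteoclast-like and 6.82% in stromal cells. Of 6137 genes that reached 10 CPM in at least 1 library in each gate, 10 (0.163%) were 2-fold lower in all 8, and mt-Nd6 was among those 10. Being lower at any size in all 8 gates was common, at 32.7% of the 6137 genes, and held for mt-Nd4l, mt-Nd5 and mt-Nd6 among the members. mt-Nd4l passed the 2-fold rule in the macrophage gate (log2 ratio -1.21, where 2.69% of genes were 2-fold lower) and in the osteoclast-like gate (-1.14, where 2.33% were), and mt-Nd5 in the osteoclast-like gate (-1.01).

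**Figure D3:**
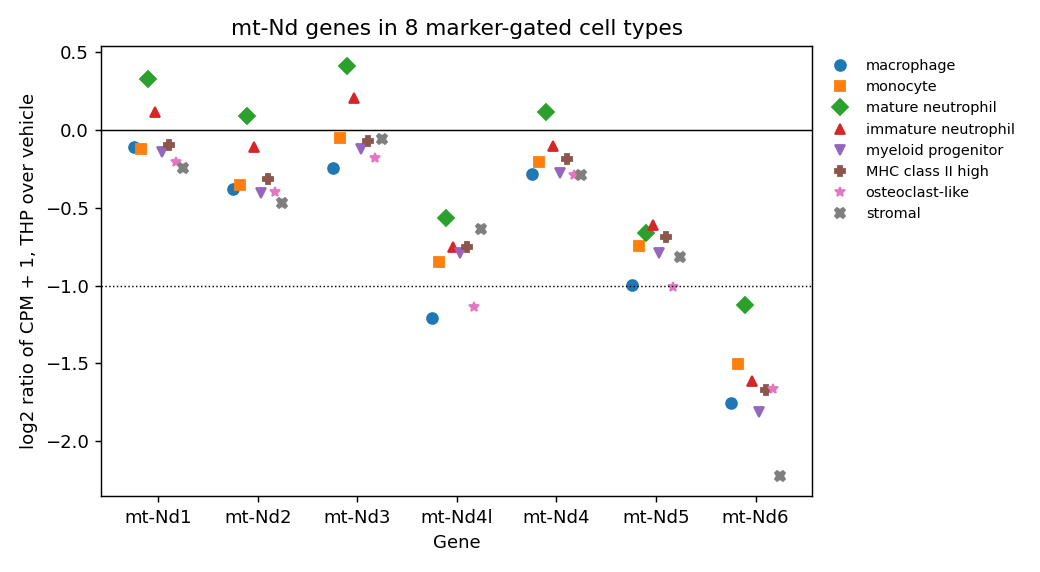
Log2 ratio of CPM + 1, THP over vehicle, of each member in 8 marker-gated cell types, 1 symbol per gate; the solid line is 0 and the dotted line is 2-fold lower. mt-Nd6 lies below the dotted line in every gate (-2.22 to -1.12), mt-Nd4l and mt-Nd5 below 0 in every gate, and the other 4 members lie near 0 and highest in mature neutrophils.

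On the scale of total UMIs, the 4 members with ratios nearest 0 were higher after THP in mature neutrophils and lower in the 6 gates without neutrophils. In mature neutrophils mt-Nd1 had 1067 CPM (1036 to 1099) after THP and 850 CPM (822 to 878) after vehicle, for a log2 ratio of 0.33. mt-Nd3 was at 143 CPM (132 to 155) and 108 CPM (98.0 to 118) there, for a log2 ratio of 0.41, and mt-Nd2 and mt-Nd4 had log2 ratios of 0.09 and 0.12. For mt-Nd2 the intervals of the libraries overlapped there, with 609 CPM (586 to 634) and 572 CPM (549 to 596). The counting interval of its log2 ratio was 0.0097 to 0.17. Genes outside complex I were also higher after THP in mature neutrophils: mt-Cytb (0.35), mt-Atp6 (0.27), mt-Co2 (0.24) and mt-Co3 (0.06). Below 0 there were mt-Co1 (-0.07) and mt-Atp8 (-0.92). Summed, the 13 mitochondrial protein genes had a log2 ratio of 0.13 in mature neutrophils and the 7 members 0.12, so this was not particular to complex I. Immature neutrophils had ratios above 0 for mt-Nd1 (0.11) and mt-Nd3 (0.20) and below 0 for the other 5. In the 6 remaining gates all 7 members had ratios below 0, although for mt-Nd3 the intervals of the libraries overlapped in 3 of these gates: stromal cells (277 and 289 CPM), monocytes (276 and 287 CPM) and antigen-presenting cells (264 and 278 CPM). The median log2 ratio of all genes compared was -0.14 in mature neutrophils and -0.18 in immature neutrophils, close to those of the macrophage (-0.17) and monocyte (-0.16) gates. Neutrophil-gated cells carried less mitochondrial RNA in both libraries, with a median mitochondrial share of 0.504% and 0.556% in mature cells and 1.58% and 1.67% in immature ones, against 3.26% and 3.797% in the macrophage gate. Mature neutrophils were also shallow, with median depths of 2489 and 2179 UMIs, and the part of depth in these values was not tested.

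Measured against the other 6 members, mt-Nd6 was lower after THP in all 8 gates. The log2 difference ran from -1.30 (-1.46 to -1.13) in monocytes to -1.95 (-2.47 to -1.42) in stromal cells, and the intervals of these gates touch. Whether the gates differ was not tested. Within a library the gates themselves differed: the THP values ran from 2.73 per 1000 UMIs in macrophages to 5.27 in mature neutrophils and the vehicle values from 7.85 in macrophages to 13.3 in immature neutrophils. The highest THP gate was thus below the lowest vehicle gate. mt-Nd4l per 1000 UMIs of mt-Nd4 likewise separated the libraries, at 51.9 to 72.6 after THP and 81.2 to 104 after vehicle, with a log2 difference from -0.93 in macrophages to -0.35 in stromal cells. For mt-Nd3 per 1000 UMIs of mt-Nd1 the differences ran from -0.13 to 0.19, with no common direction.

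**Figure D4:**
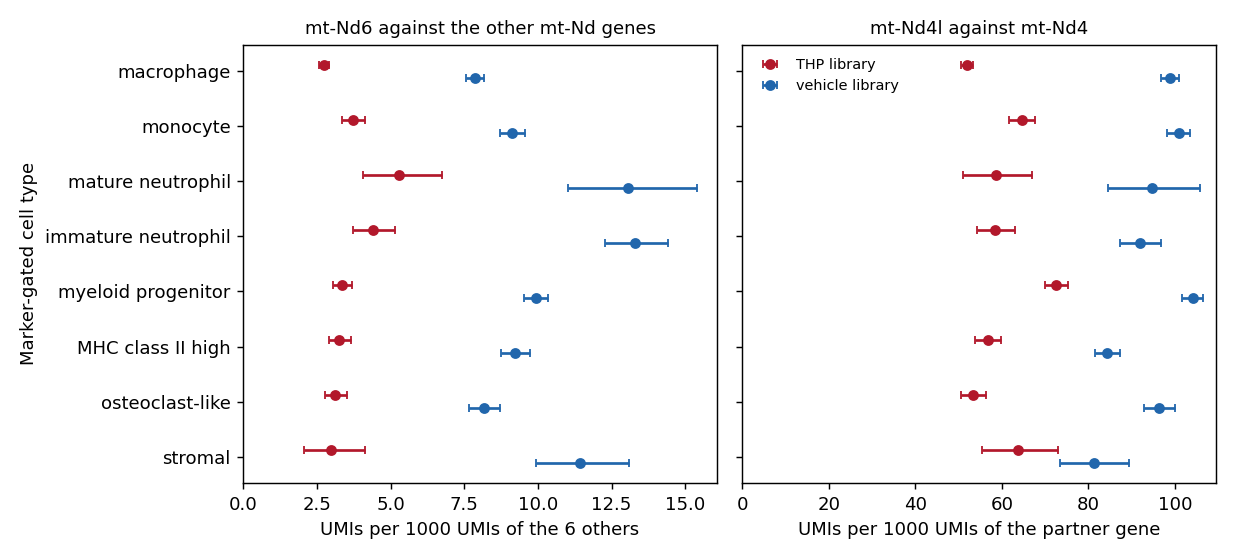
UMIs of mt-Nd6 per 1000 UMIs of the 6 other members (left) and of mt-Nd4l per 1000 UMIs of mt-Nd4 (right) in each gate and library; points are ratios and bars exact binomial 95% intervals. All THP points lie to the left of all vehicle points in both panels (at most 5.27 against at least 7.85, and at most 72.6 against at least 81.2).

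mt-Nd6 was seen in fewer cells of the THP library. At least 1 UMI was found in 24.5% (23.7 to 25.2) of the cells given THP, compared with 53.4% (52.5 to 54.4) of those given vehicle, and 3 or more in 2.28% and 15.3%. The highest count in a cell was 10 and 17. mt-Nd1, for comparison, was found in 90.2% and 88.3% of cells, and mt-Nd4l in 67.5% and 76.6%. After each cell was thinned to 5000 UMIs, which left out 1958 THP and 1966 vehicle cells, mt-Nd6 was found in 8.86% (8.32 to 9.43) and 25.5% (24.6 to 26.4). Thinned to 5000 UMIs, the macrophage gate had 8.63% and 29.0% and the myeloid progenitor gate 8.35% and 27.5%. In mature neutrophils, of which only 155 and 135 reached that depth, the shares were 9.68% (5.52 to 15.5) and 19.3% (12.98 to 26.9), and in stromal cells they were 9.59% (3.94 to 18.8) and 27.9% (17.1 to 40.8). The intervals of the libraries overlap in both of these gates. Every cell type holds mitochondria, so no gate gives a background level for these shares.

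Cells of like mitochondrial share and like depth were compared because both were lower after THP. In cells with at most 2% mitochondrial UMIs, mt-Nd6 gave 4.71 UMIs (4.01 to 5.50) per 1000 UMIs of the other members after THP and 19.1 (17.3 to 21.0) after vehicle. In cells with 4 to 6% it gave 3.07 (2.85 to 3.31) and 7.77 (7.52 to 8.03). The log2 difference ran from -2.02 in the lowest class to -1.30 in the class from 6 to 10%, so the libraries differed in each class, with a smaller distance among kept cells where the mitochondrial share was higher. Barcodes above the 10% limit did not continue this order, with -1.15 from 10 to 20% and -1.88 above 20%. Over classes of depth the difference lay between -1.69 and -1.32 with no steady trend, although in each library mt-Nd6 per 1000 UMIs was lower in deeper cells, from 6.14 and 15.4 below 5000 UMIs to 2.55 and 6.75 at 40000 UMIs or more.

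**Figure D5:**
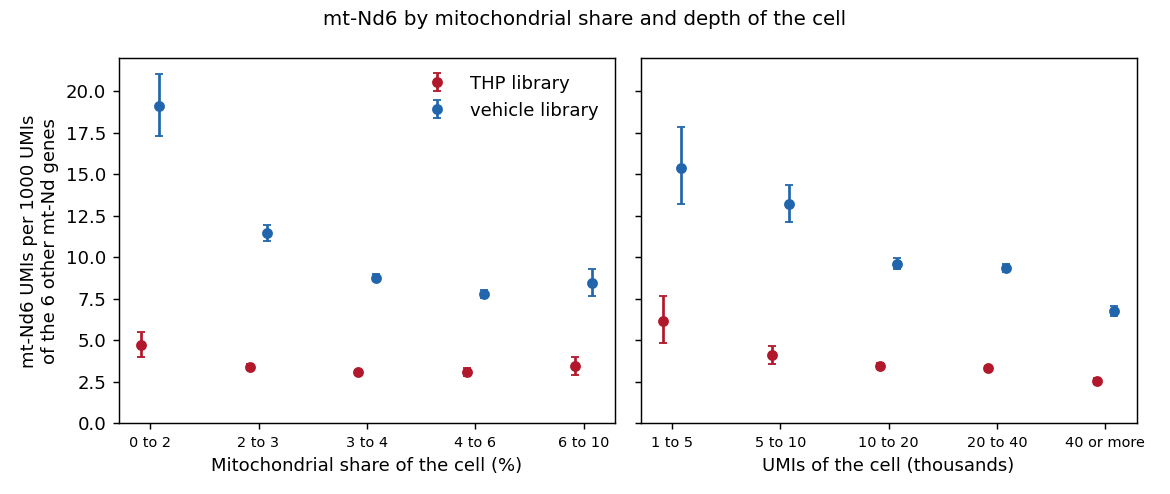
mt-Nd6 UMIs per 1000 UMIs of the 6 other members by the mitochondrial share of the cell (left, percent) and by the UMIs of the cell (right, in units of 1000), for each library; bars are exact binomial 95% intervals. The vehicle library is higher in every class, for example 19.1 against 4.71 per 1000 in cells with at most 2% mitochondrial UMIs.

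By total UMIs, nuclear subunits of complex I did not share the direction of the mitochondrial ones. Of 37 nuclear subunits on the list, 36 were found among the genes listed and all 36 had at least 10 CPM. None was 2-fold different, 35 had ratios above 0 and 1 below, and their median log2 ratio was 0.23. All genes had a median of -0.18, and ratios above 0 were the smaller part of them, since -0.04 (mt-Co2) lay at percentile 64.0. Genes with a longest transcript of up to 600 or of 600 to 1000 bases had medians of 0.17 and 0.19. The part of length in the nuclear values was not tested. Ndufs5, an accessory subunit, was at 298 CPM (296 to 300.5) after THP and 234 CPM (232 to 236) after vehicle, for a log2 ratio of 0.35, and Ndufb2 had 0.34. At the other end were Ndufs1, a core iron-sulfur subunit, with 39.8 CPM (39.0 to 40.7) versus 55.7 CPM (54.7 to 56.7) and a log2 ratio of -0.47, and Ndufa10 with 0.01. TMM scaling moves all ratios up by 0.29, so the counts above and below 0 in the nuclear lists hold for scaling by total UMIs. The contrast in direction holds for that scaling too. With TMM the members other than mt-Nd6, summed, had a log2 ratio of 0.047, on the same side of 0 as most nuclear subunits. Assembly factors, which build the complex but are not part of it, were divided, with 7 of 14 genes above 0 and a median of 0.01. Acad9 was lowest at -0.87 (6.07 CPM against 11.95 CPM) and Foxred1 next at -0.26, while Ndufaf3 (0.28) and Ndufaf4 (0.27) were highest.

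Genes that make, process or degrade mitochondrial RNA showed no 2-fold difference. Of 5 transcription and DNA maintenance genes at 10 CPM or more, Polg, the mitochondrial DNA polymerase, was lowest at -0.40 with Tfb2m at -0.29, and Ssbp1 was highest at 0.14, next to Mterf3 at -0.08. Of 13 processing and decay genes, 5 were above 0 and 8 below, with a median of -0.05. Lrpprc, which stabilizes mitochondrial mRNAs, was lowest with 21.5 CPM (20.9 to 22.2) after THP and 40.8 CPM (40.0 to 41.7) after vehicle, for a log2 ratio of -0.89. Its binding partner Slirp was highest, at 120.4 CPM (119 to 122) versus 97.47 CPM (96.1 to 98.8), for a log2 ratio of 0.30, followed by Fastkd3 at 0.23. Grsf1, which binds G-rich mitochondrial RNA such as that of the mt-Nd6 strand, had 27.5 CPM (26.8 to 28.2) versus 39.7 CPM (38.9 to 40.6), for a log2 ratio of -0.52, and Fastk, known for its part in forming mt-Nd6 mRNA, 23.6 CPM (23.0 to 24.2) versus 20.9 CPM (20.3 to 21.5), a ratio of 0.17. Lrpprc and Slirp thus lay on opposite sides of 0 with intervals that do not overlap.

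Among the genes whose ratios over the 8 gates were nearest to those of mt-Nd6, by Euclidean distance over 6136 candidates, were Hist1h3c (distance 0.74), Hist1h2ap (1.21), Hist1h1e (1.43) and Hist2h2ac (1.45). Hist1h3c had 24.7 CPM (24.0 to 25.3) after THP and 99.4 CPM (98.1 to 101) after vehicle, and its log2 ratio in the gates ran from -2.74 to -1.42. Hist1h2ap had 71.9 CPM (70.8 to 73.0) and 243 CPM (241 to 245). These 4 genes encode replication-dependent histones, whose mRNAs normally end in a stem-loop in place of a poly(A) tail. Of the other mitochondrial genes, mt-Atp8 was nearest at rank 43, mt-Nd4l ranked 214 and mt-Nd5 244, and mt-Nd1 was at rank 3161.

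Short genes had a higher median ratio than all genes but also a larger share of 2-fold lower genes. Of 69 compared genes with a longest transcript of up to 600 bases, the class that holds mt-Nd3, mt-Nd4l and mt-Nd6, the median log2 ratio was 0.17 beside -0.18 for all genes, and 9 (13.04%) were 2-fold lower beside 2.97% of all genes. In the class of 600 to 1000 bases 1.75% were 2-fold lower. These 9 were mt-Nd6, mt-Atp8, 6 histone genes (Hist1h2ap, Hist1h3i, Hist1h4h, Hist2h2aa1, Hist2h2ac and Hist2h2bb) and Iglc3. Nuclear-retained RNAs on the list (2 of 2) were also lower without passing the rule, Malat1 with 4253 against 6448 CPM (log2 ratio -0.60) and Neat1 with 117 against 206 CPM (-0.81), and whether RNA from nuclei had a part in the differences was not tested.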

How the data were processed

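Single-cell RNA was measured in 1 THP and 1 vehicle library. The deposited values are raw UMI counts per gene and barcode, written by software version 3.1.0 in matrix format 2, per the file headers. Cell Ranger, STAR, bcl2fastq and the build mm10 are named in the submitters' processing notes, with no parameters. Barcodes were kept with at least 500 genes, at least 1000 UMIs and at most 10% mitochondrial UMIs, a limit that acts on the members. No doublet caller was run; an alternative dropped the 5% of cells with most UMIs. UMIs were summed per library or gate and divided by the total (CPM). Intervals are exact Poisson for CPM, exact binomial (Clopper-Pearson) for shares and for UMIs per 1000 UMIs, and Poisson delta-method for log2 differences within the mitochondrial RNA; UMIs of a cell are not independent, so they are lower limits of the error. No p-value was computed. The fold rule was 10 CPM in at least 1 library and 2-fold on the CPM + 1 scale. It was tried on simulated counts with counting error only and with changes larger than 2-fold. That trial cannot show how the rule does near 2-fold or between replicate libraries. TMM and RLE factors came from edgeR 4.0.16. Coordinates, lengths and sequences are those of GENCODE M21 (GRCm38, the assembly of mm10).

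Members, lists, markers and tests were chosen with earlier results of these data known, and the gate's scoring rule after the counts were seen. Genes named are the 7 members, the other mitochondrial genes, from each nuclear list the 2 highest and 2 lowest ratios at 10 CPM and any gene past 2-fold (there was none), and the 5 genes most like mt-Nd6, of which 1 is not reported here; Fastk and the short genes were picked after their values were seen. Each group is 1 sample, so cells were summed and never used as replicates.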

Additional observations from a re-analysis of the deposited data

Results flagged for a closer look

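For 4 members the ratio was above 0 in mature neutrophils (for mt-Nd1 and mt-Nd3 also in immature neutrophils) and below 0 in the remaining gates, with counting intervals off 0 at the highest and the lowest gate. The highest and lowest log2 ratios over the gates were 0.58 apart for mt-Nd1, 0.56 apart for mt-Nd2, 0.65 apart for mt-Nd3 and 0.41 apart for mt-Nd4. With 1 library per group these differences between cell types were not tested. In mature neutrophils the 13 mitochondrial protein genes summed had a log2 ratio of 0.13, beside 0.12 for the 7 members. A ratio above 0 there was thus not particular to complex I.

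Of THP barcodes 8.11% failed the cell filter (7.65 to 8.59), compared with 5.23% of vehicle barcodes (4.83 to 5.65), and these barcodes stand outside the comparisons above. In them mt-Nd6 gave 4.37 UMIs (3.94 to 4.82) per 1000 UMIs of the other 6 members in the THP library and 13.3 (12.5 to 14.2) in the vehicle library, on 395 and 958 mt-Nd6 UMIs.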

How the results depend on the processing

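mt-Nd6 had a log2 ratio of -1.66, and it stayed past 2-fold under all 13 alternatives. The values furthest from it were -1.39 with TMM and with RLE factors, -1.55 over the 13 mitochondrial genes, -1.57 with equal weight per cell and with cells thinned to 2000 UMIs, and -1.71 without a pseudocount. The counting interval given above, 0.294 to 0.316 of the vehicle level, was itself computed without the pseudocount. The 6 others summed (-0.24) gave 0.047 with TMM and 0.041 with RLE, a change of sign, and -0.075 over the 13 mitochondrial genes. They gave -0.22 with no mitochondrial limit, -0.23 with a limit of 5%, -0.23 with 20%, -0.22 with all barcodes, -0.22 without the top 5% of cells, -0.24 with nuclear UMIs, -0.15 with equal weight per cell, -0.27 with the same mix of gates and -0.17 thinned. The difference of mt-Nd6 from the others (-1.48) was -1.57 against the 6 genes outside complex I, -0.82 against mt-Nd5 and -1.55 against mt-Nd1 and mt-Nd2. In the 8 gates, 56 recomputed differences ran from -2.07 to -1.27, including those of a gate on detected markers that was added after the data were seen and moved the osteoclast-like value from -1.39 to -1.89.

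Signs changed for mt-Nd1 (0.22 with TMM, 0.21 with RLE, 0.10 over the mitochondrial genes, 0.024 with equal weight, 0.0095 thinned), for mt-Nd3 (0.16 with TMM, 0.15 with RLE, 0.038 over the mitochondrial genes) and for mt-Nd4 (0.048 with TMM, 0.041 with RLE). The share of cells with mt-Nd6 differed by -29.0 percentage points, or -7.02 thinned to 2000 and -16.7 thinned to 5000 UMIs. Genes past the fold rule (73 higher, 238 lower) were 187 and 1387 at 1.5-fold, 31 and 21 at 3-fold, 45 and 84 at 50 CPM, and 138 and 69 with TMM and likewise with RLE, so that 66.7% of them were higher in place of 23.5%. The cause of these changes was not tested. No paired analysis was possible because each group has 1 library. Few mt-Nd6 UMIs limit the stromal gate (34 in the THP library, from 74 cells) and the mature neutrophil gate (64, from shallow cells).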
